A study of Mus musculus with 4 samples.

Results

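The HoxD cluster lies on mouse chromosome 2 and holds 9 Hoxd genes on the plus strand, in the order Hoxd13, Hoxd12, Hoxd11, Hoxd10, Hoxd9, Hoxd8, Hoxd4, Hoxd3 and Hoxd1. In the GRCm38 annotation Hoxd13 begins at 74668310 and Hoxd1 ends at 74765142. Contacts were deposited between 8 kb bins, and the cluster overlaps 13 of them, chr2:74664001-74768000. Every pair with a bin of the cluster and its partner within chr2:73504001-75696000 was taken, which gives a flank of 145 bins (1160 kb) on the centromeric side, where Evx2 and Lnpk lie, and of 116 bins (928 kb) on the telomeric side, where Mtx2 lies. Of 3484 possible pairs, 1799 were listed in embryonic stem cells and 1635 in motor neurons, out of 23095428 and 21005697 pairs listed over all chromosomes.

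Hox genes encode homeodomain transcription factors that set position along the body axis, and their order on the chromosome follows the order of their expression along that axis. HoxD is known for the large gene-poor regulatory landscapes on either side of it: enhancers on the telomeric side serve early and proximal limb expression, and those on the centromeric side serve digits and genitals through Hoxd13 and its neighbours. Such landscapes are often read as topologically associating domains, stretches within which chromatin contacts are more frequent, and CTCF with cohesin is known to form many of their borders. In motor neurons, anterior Hox genes mark cervical levels, and a border inside a Hox cluster can part them from the posterior genes.

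The contacts come from Micro-C, in which cross-linked chromatin is cut by micrococcal nuclease and ligated in place, so that ligated fragments count as a contact. E14 mouse embryonic stem cells (ESCs), kept with LIF and inhibitors of MEK and GSK3, and motor neurons (MNs) derived from them as embryoid bodies with 1 uM retinoic acid and 0.5 uM smoothened agonist from day 2, were each profiled as wild type (WT) and PATZ1 knockout (KO). PATZ1 is a zinc finger protein that binds G-rich DNA, and the comparison asks how its loss bears on chromosome folding. Each of the 4 groups was 1 library, and the KO was made with CRISPR/Cas9 in E14 cells and carried as clones, so a difference between libraries has no replicate check and a clone cannot be told apart from the KO. The files hold no expression, so neither cell type could be checked against its markers.

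Listed contacts summed to 170946673 in WT ESCs, 160496081 in KO ESCs, 110991835 in WT MNs and 118032533 in KO MNs. HoxD pairs held 10409, 9773, 7722 and 7256 of them. The deposited columns are numbered and name no sample. Column 1 was taken to be WT and column 2 KO, and each direction of KO against WT depends on that. In the bin at the start of Patz1 (chr11:3288001-3296000) contacts with all bins were 562 in WT and 399 in KO ESCs and 380 in WT and 228 in KO MNs, lower by 0.40 (0.22 to 0.59) and 0.83 (0.59 to 1.07) on the log2 scale after scaling to the listed total. How many other bins differed as much was not computed, so these values do not settle the order of the columns.

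The centromeric share of a bin is its contacts with the centromeric flank over its contacts with both flanks. Observed over expected (O/E) divides the contacts by those expected for the same distances, from the mean contact per possible pair at each distance on chromosome 2 in the same library. All intervals are at the 95% level, exact (Clopper-Pearson for a share, Poisson for O/E, conditional binomial for a ratio of O/E) except that of a difference of shares (Newcombe), and cover counting error only. Each gene stands for the 8 kb bin of its annotated coding start. Hoxd4 and Hoxd3 have transcripts that begin upstream and overlap, and 4 of the 13 bins hold no coding start.

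From Hoxd13 to Hoxd1 the flank contacts of the cluster moved from the centromeric to the telomeric side, in all 4 libraries. Hoxd13, a regulator of digit and genital development, had a centromeric share of 85.5% (82.5 to 88.2) in WT ESCs, 86.9% (83.6 to 89.7) in KO ESCs, 86.8% (83.5 to 89.5) in WT MNs and 85.2% (81.8 to 88.2) in KO MNs. Hoxd12 stood at 77.8%, 73.7%, 73.9% and 70.9% in the same order, and Hoxd11, which acts in the forearm and kidney, at 56.0%, 53.0%, 53.8% and 51.9%. Without allowance for distance, the side with more contacts changed between Hoxd11 and Hoxd10, a gene of lumbar motor neurons. Hoxd10 had a share of 35.2%, 36.0%, 28.6% and 31.1%. The place of the change relative to the share expected from distance was not determined.

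On the other side of that change the shares were low and close to each other. Hoxd9 had 17.1%, 16.5%, 13.1% and 15.6% on the centromeric side and Hoxd8 12.8%, 11.9%, 6.56% and 6.61%. Hoxd4, active from the hindbrain backwards, had 15.4% (12.2 to 19.0), 12.4% (9.41 to 15.9), 4.25% (2.50 to 6.72) and 5.49% (3.39 to 8.36). Its neighbour Hoxd3, which patterns cervical vertebrae, had 15.7%, 15.4%, 4.38% and 4.41%, and Hoxd1, a gene of sensory neurons, 12.8%, 12.5%, 6.59% and 6.67%. Among Hoxd8, Hoxd4, Hoxd3 and Hoxd1 the intervals overlapped within each library, so their order was not resolved, whereas those of Hoxd13, Hoxd12, Hoxd11, Hoxd10 and Hoxd9 did not overlap between neighbours in WT ESCs.

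**Figure D1:**
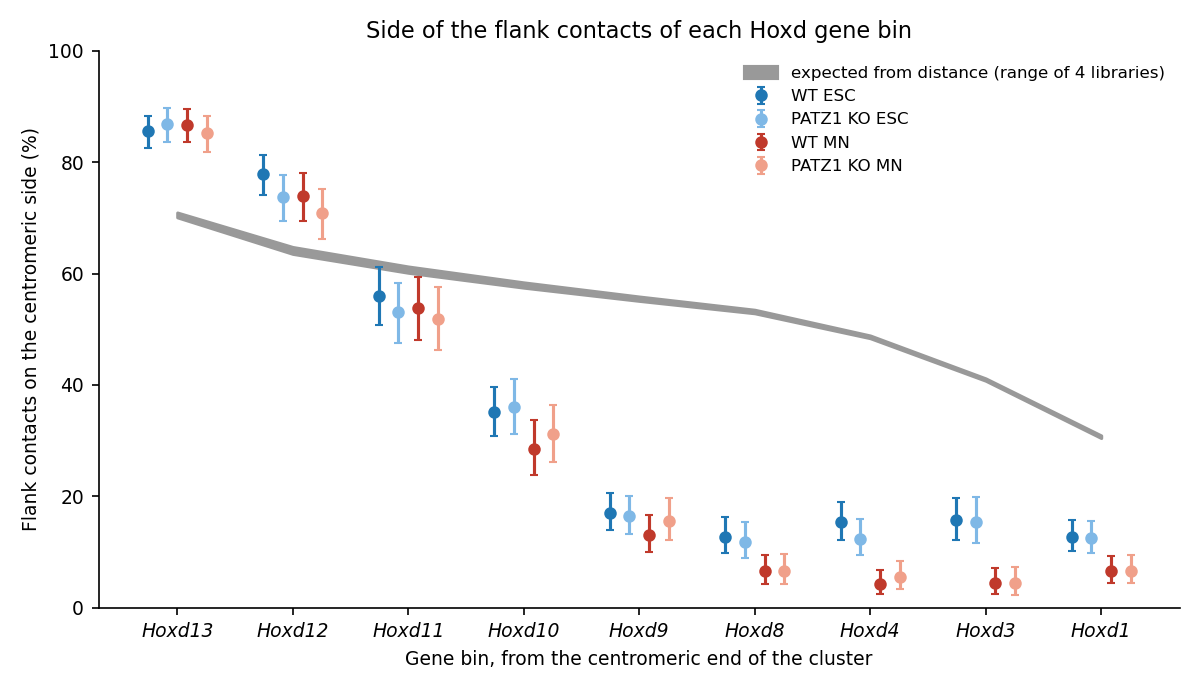
Share of flank contacts on the centromeric side (%, vertical axis) for the bin of each Hoxd gene in chromosomal order, in 4 libraries with 95% intervals for counting error, and the share expected from distance alone as a grey band. Shares fell from 85.5% at Hoxd13 to 12.8% at Hoxd1 in WT ESCs, and the MN points lay below the ESC points from Hoxd8 to Hoxd1.

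Part of such a slope follows from position alone, because a bin at an edge of the window is nearer to the flank it faces. From distance alone, the share expected in WT ESCs was 70.5% at Hoxd13, 57.7% at Hoxd10 and 30.5% at Hoxd1. The observed difference between the first and last bin was 72.7, 74.4, 80.2 and 78.5 percentage points in WT ESCs, KO ESCs, WT MNs and KO MNs. Over 21979 windows of 13 bins tiled along the autosomes the median difference was 39.4 points in WT ESCs, and HoxD stood at percentile 98.0, with percentiles of 98.6, 99.3 and 99.0 in the other 3 libraries.

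The O/E values show what lay behind the shares. For Hoxd13 the centromeric O/E was 1.58, 1.46, 2.11 and 1.96 (532, 443, 452 and 420 contacts) and the telomeric O/E 0.640, 0.519, 0.781 and 0.831 (90, 67, 69 and 73 contacts). Hoxd9 had a centromeric O/E of 0.454, 0.417, 0.411 and 0.469 and a telomeric O/E of 2.72, 2.60, 3.47 and 3.20, with 442, 386, 353 and 324 telomeric contacts. Summed over a flank, contacts of Hoxd13 were thus above expectation on the centromeric side and below it on the telomeric side, and those of Hoxd9 the reverse. For Hoxd4, Hoxd3 and Hoxd1 as a set the telomeric O/E was 1.64, 1.68, 2.35 and 2.15 and the centromeric O/E 0.432, 0.391, 0.198 and 0.198, on 205, 170, 60 and 60 centromeric contacts.

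The preference differed with distance. Over 600 kb away, Hoxd13 to Hoxd11 had a centromeric O/E of 3.72 (3.28 to 4.20), 3.54 (3.10 to 4.02), 7.67 (6.98 to 8.41) and 7.35 (6.68 to 8.06), while up to 96 kb away it was 0.896, 0.894, 0.865 and 0.728. For Hoxd10 to Hoxd8 the telomeric O/E over 600 kb was 3.57, 3.35, 7.05 and 6.93, and up to 96 kb 0.813, 1.07, 0.622 and 0.491. In the class of distances next below 600 kb the values were 2.30, 1.79, 2.36 and 2.00 for the first group on the centromeric side and 3.93, 3.68, 5.40 and 4.76 for the second on the telomeric side. Both groups were thus above expectation in the upper classes of distance, and below it up to 96 kb, but for Hoxd10 to Hoxd8 in KO ESCs, at 1.07. Hoxd4, Hoxd3 and Hoxd1 had 31, 21, 3 and 3 centromeric contacts within 96 kb, with an O/E of 0.770, 0.589, 0.118 and 0.120. These distance classes are given at the listed depth of each library, lower in MNs, and were not recomputed at equal depth.

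Summed over the cluster, contacts with the telomeric flank were above expectation and those with the centromeric flank below it. The centromeric flank held 1953 contacts in WT ESCs, 1655 in KO ESCs, 1243 in WT MNs and 1191 in KO MNs, at an O/E of 0.762 (0.729 to 0.797), 0.710 (0.676 to 0.745), 0.755 (0.714 to 0.798) and 0.727 (0.687 to 0.770). The telomeric flank held 4176, 3857, 3762 and 3518 contacts, at an O/E of 1.67 (1.62 to 1.72), 1.70 (1.65 to 1.75), 2.38 (2.31 to 2.46) and 2.24 (2.17 to 2.32). Among the windows of the autosomes the telomeric O/E stood at percentiles 96.6, 96.4, 99.82 and 99.74, and the centromeric O/E at 24.8, 21.3, 26.2 and 23.5. Only pairs seen in both libraries of a cell state are listed. Those came to 36.4% of the possible centromeric pairs and 67.8% of the telomeric pairs in ESCs and to 26.3% and 70.2% in MNs. Low O/E values thus lack the pairs seen in a single library. The expectation lacks such pairs as well, so O/E can depend on depth.

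**Figure D2:**
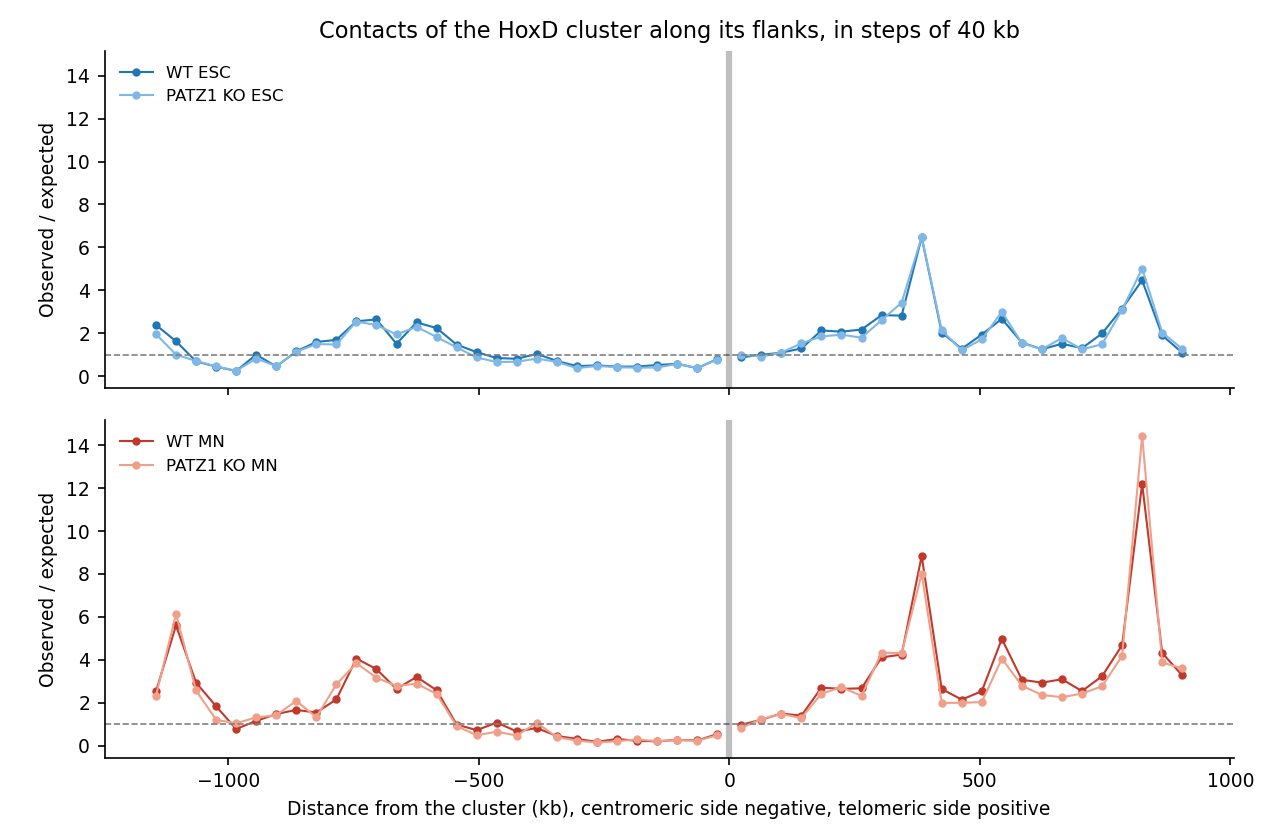
O/E of the whole cluster (vertical axis) along both flanks in steps of 40 kb, against the distance from the cluster in kb (centromeric side negative, telomeric side positive), for ESCs above and MNs below. Peaks on the telomeric side lay near 384 kb and 824 kb in both cell states, and the peak near 824 kb was higher in MNs.

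Within this profile a few bins stood out, chosen as the 3 on each side with the highest O/E in each cell state on the sum of WT and KO and at least 40 kb away. A bin was thus picked for its level in that cell state, and its values in the other state are given as a description, since the choice favours a difference in that direction. In ESCs the telomeric maximum was chr2:75144001-75152000, 384 kb from the cluster, within the non-coding genes 2600014E21Rik and A330043C09Rik. It held 157 contacts with the cluster in WT ESCs, 126 in KO ESCs, 109 in WT MNs and 91 in KO MNs, at an O/E of 10.2, 8.74, 11.5 and 9.56. Its level relative to expectation was thus similar in both cell states. The bin before it, at 75136001, held 118, 127, 88 and 108 contacts.

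In MNs the telomeric maximum was chr2:75584001-75592000, 824 kb away and without an annotated gene. It held 26 contacts in WT ESCs and 29 in KO ESCs, at an O/E of 6.68 and 7.75, and 70 in WT MNs and 84 in KO MNs, at 20.0 (15.6 to 25.2) and 23.2. This bin was among the top 3 of ESCs as well. The ESC libraries were also thinned at random by the ratio of the listed totals, MN over ESC. Pairs no longer seen in both libraries were then dropped. Fewer contacts thus stayed listed than were drawn, and the match to MN depth was not exact. In the thinned ESC libraries the values were 16 and 20 contacts and an O/E of 7.72 (4.41 to 12.5) and 9.56 (5.84 to 14.8). The next bins in MNs were 75592001 (46 contacts in WT, 72 in KO, against 20 and 19 in ESCs) and 75600001 (33 and 47, against 10 and 9).

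On the centromeric side the bin at 73912001, 752 kb away and next to Atp5g3, a gene of mitochondrial ATP synthase, was among the top bins of both cell states, with 21, 20, 22 and 24 contacts. The other choices in ESCs were 73920001, with 14 and 17 contacts in ESCs and 20 and 17 in MNs, and 73512001, in Wipf1, with 6 and 5 in ESCs and 5 and 4 in MNs. In MNs the highest were 73576001, with 1 contact in each ESC library against 14 in WT and 21 in KO MNs, and 73560001, with 7 and 3 in ESCs against 14 and 19 in MNs. Both overlap Chrna1, which encodes the alpha subunit of the muscle acetylcholine receptor, and the next was 73912001 again. In MNs the contacts with Chrna1 came mostly from the posterior end of the cluster. Hoxd13 to Hoxd11 supplied 6 of 9 in WT ESCs, 2 of 5 in KO ESCs, 34 of 39 in WT MNs and 44 of 52 in KO MNs. The O/E of Hoxd13 to Hoxd11 with Chrna1 was 4.14, 1.43, 21.6 (15.0 to 30.2) and 26.8 (19.5 to 36.0). With the ESC libraries thinned it was 6.61 (2.15 to 15.4) in WT and 2.65 (0.321 to 9.59) in KO. The thinned WT ESC interval overlapped that of WT MNs. Chrna1 covers 3 bins, and 2 of them are the bins just picked for their MN level. The choice thus favours this difference as well. Whether Chrna1 was transcribed in these cells was not measured.

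The sequences under 3 of these partner bins are shown because they hold a match to the 12-base core consensus of CTCF, the DNA-binding protein of many domain borders. Each is read 5′ to 3′ on the strand of the match, with the 12 bases of the consensus in capitals and 9 reference bases (GRCm38) on either side. Their positions were picked after the values were seen.
Chrna1 bin, plus strand, intergenic, chr2:73561799-73561810: tcacaaacaCCACTAGGTGGCgatagttcc
Chrna1 bin, minus strand, intron of Chrna1, chr2:73566367-73566378: aaggccaggCCAGTAGGGGGCgctatgagc
Bin 384 kb away, minus strand, intron of non-coding genes, chr2:75151173-75151184: gcttcttcaCCACCAGGTGGCgccctttgt
Bin 824 kb away, minus strand, intergenic, chr2:75590413-75590424: agatcgtgtCCACTAGGTGGCgcgcatggg
A further match of the Chrna1 bin, on the plus strand at 73564569, lies in a UTR of Chrna1 and is not printed.

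Over the whole window the strands of the matches were divided by side. The centromeric flank had a match in 6 of 145 bins, 7 on the plus strand and 1 on the minus strand, and the telomeric flank in 7 of 116 bins, 0 on the plus strand and 7 on the minus strand. None of the 13 cluster bins held a match. No base outside the consensus was allowed, so sites that depart from it were not sought. Of all 319939 bins of the genome 3.80% held 1 or more, with 6261 matches on the plus strand and 6467 on the minus strand. With so few matches in the flanks the division is a description. These are letters in a reference sequence, and no binding was measured here.

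Every protein-coding gene of the flanks was also taken as a partner. Evx2, a homeobox gene next to Hoxd13, had 322 contacts with the cluster in WT ESCs, 271 in KO ESCs, 134 in WT MNs and 130 in KO MNs, at an O/E of 1.00 (0.896 to 1.12), 0.954, 0.646 (0.541 to 0.765) and 0.628. Lnpk, which encodes a protein of the endoplasmic reticulum, had 213, 163, 56 and 55 contacts at an O/E of 0.580, 0.496, 0.261 and 0.262. Both genes were nearer to the cluster's expectation in ESCs than in MNs. The contacts of Evx2 with Hoxd4, Hoxd3 and Hoxd1 were 33 and 25 in ESCs against 2 and 2 in MNs, whereas those with Hoxd13 to Hoxd11 had an O/E of 1.08, 1.00, 0.948 and 0.878.

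Several other genes of the flanks had values above 1 in each library. For Mtx2 and Nfe2l2 the intervals in both ESC libraries included 1. Atp5g3 had an O/E of 2.77, 2.23, 3.75 and 4.61 on 13, 10, 15 and 19 contacts. Mtx2, for a mitochondrial import protein, had an O/E of 1.06, 1.06, 1.35 and 1.44 on 400, 354, 304 and 317 contacts. Atf2, a transcription factor gene, stood at 1.66, 1.49, 1.86 and 2.07, and Nfe2l2, the regulator of the oxidative stress response, at 1.34, 1.39, 3.21 and 3.20 on 12, 12, 28 and 29 contacts. Of these, Nfe2l2, near the telomeric edge of the window, stood furthest apart between the cell states. Wipf1, for a partner of the actin regulator WASP at the centromeric edge, ran the other way, with an O/E of 2.55, 2.16, 2.28 and 1.59, whose intervals overlapped. Hnrnpa3 beside Nfe2l2, for an RNA-binding protein, had 3 contacts in each ESC library against 14 and 19 in MNs, and Chn1, for a Rac regulator of neurons, 29 and 28 contacts in ESCs against 69 and 72 in MNs.

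Set side by side across cell states, the cluster had a lower centromeric share in MNs than in ESCs. The share of the whole cluster was 31.9% in WT ESCs and 24.8% in WT MNs, a difference of -7.03 points (-8.69 to -5.35), and 30.0% in KO ESCs and 25.3% in KO MNs, a difference of -4.73 points (-6.46 to -3.00). These stood at percentiles 8.90 and 18.4 of 21932 windows, of which 20.6% and 40.6% were at least as far from 0. The share was lower in MNs in 12 of 13 bins in WT and 13 of 13 in KO. The background was taken over bins with an expectation of at least 100 contacts a side, which 6 of the 13 reached, 3 of them gene bins. Bins of the cluster share their flanks, so such counts, here and below, are not of independent bins. All 6 were lower in either genotype, against 47.6% of such bins on the autosomes in WT and 48.1% in KO, and 5 had an interval below 0, against 14.1% of bins tested on the autosomes in WT and 14.4% in KO. The pairs of each cell state were listed separately, and on the pairs listed in both states the differences were -2.70 points (-4.44 to -0.96) in WT and -1.03 points (-2.81 to 0.76) in KO.

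The anterior genes had fewer centromeric contacts in MNs. Hoxd4 had 71 and 52 centromeric contacts in ESCs against 17 and 20 in MNs, a log2 ratio of O/E of -1.42 (-2.27 to -0.64) in WT and -0.86 (-1.68 to -0.09) in KO. Hoxd3 had 60 and 48 against 14 and 13, with log2 ratios of -1.46 (-2.41 to -0.60) and -1.36. At the posterior end the ratios by distance had the other sign: Hoxd13 stood at 0.42 (0.23 to 0.60) in WT and 0.42 (0.22 to 0.61) in KO, Hoxd12 at 0.23 and 0.25, and Hoxd11 at 0.34 and 0.32, with all 6 intervals above 0. Of the 10 bins that reached the minimum on this side, 7 were gene bins, without Hoxd3 and Hoxd1. Hoxd13, Hoxd12 and Hoxd11 had an interval above 0 in either genotype, against 21.9% of bins on the autosomes in WT and 16.9% in KO. In either genotype 4 of the 10 had one below 0, 1 of them a gene bin, against 23.2% and 17.7%. Over the cluster the log2 ratio was -0.01 (-0.12 to 0.09) in WT and 0.03 (-0.07 to 0.14) in KO. These centromeric values depended on the expectation. Set by distance and GC content, an alternative added after the values were seen, it put the cluster at -0.23 (-0.34 to -0.13) in WT and -0.04 (-0.15 to 0.07) in KO. Of all 13 bins, by distance 3 had an interval above 0 and 7 one below 0 in each genotype. With GC content 1 in each genotype had an interval above 0, and 9 in WT and 7 in KO had one below 0. With the ESC libraries thinned, 1 bin in WT and 2 in KO had an interval above 0, and 6 and 5 had one below 0. For these counts over 13 bins no share over all bins was computed.

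The telomeric O/E was higher in MNs in each of the 13 bins in both genotypes, though the summed contacts were fewer. Over the cluster the log2 ratio was 0.51 (0.45 to 0.58) in WT and 0.40 (0.33 to 0.47) in KO, at percentiles 91.1 and 90.4 of the windows. Of the 9 bins that reached the minimum, 9 were higher in WT and in KO, against 48.2% and 48.7% of bins on the autosomes. These bins share a flank and are not independent of each other. GC content moved with this measure: the HoxD bins have 49.0% GC, percentile 94.4 of 22907 windows, and in the 10% of windows richest in GC the median log2 ratio was 0.44 in WT and 0.16 in KO, where HoxD stood at percentiles 62.0 and 82.0. With the expectation set by distance and GC content the ratios were 0.30 (0.23 to 0.36) and 0.30 (0.24 to 0.37). With the ESC libraries thinned they were 0.47 and 0.37.

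In the PATZ1 KO the centromeric share of single HoxD bins differed from WT by less than counting error allows to resolve. In ESCs, 0 of 13 bins had an interval for the KO minus WT share that excluded 0, against 3.40% of bins on the autosomes, and the differences ran from -4.06 points at Hoxd12 to 3.20 points in a bin without a coding start. In MNs, 0 of the 6 bins tested excluded 0, against 2.62%. For Hoxd13 the KO minus WT difference stood at 1.33 points (-2.77 to 5.33) in ESCs and at -1.56 points (-5.88 to 2.72) in MNs, so a change of a few points would not have been detectable at this depth.

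A log2 ratio of O/E beyond 0.32 in either direction, the threshold for a call between KO and WT, was reached by 0 of 13 bins in ESCs on the centromeric side, where 6.81% of bins on the autosomes reached it, and by 0 of 13 on the telomeric side, where 7.18% did. In MNs it was reached by 1 of 10 bins tested on the centromeric side, against 24.3%, and by 0 of 9 on the telomeric side, against 26.0%. The bin that did so, at 74728001, holds no coding start and had 15 contacts in WT and 20 in KO MNs, with a log2 ratio of 0.42 (-0.62 to 1.49). No gene bin did. These shares were at or below the background of each comparison.

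Over the whole cluster the counts are larger and the intervals narrower. The centromeric share was 1.84 points lower in KO than in WT ESCs (-3.52 to -0.16), percentile 8.23 of 22003 windows, and 0.46 points higher in KO than in WT MNs (-1.27 to 2.18). The ESC interval included 0 without pairs over 500 kb (-3.60 to 0.045) and on pairs with a mean of at least 3 (-3.34 to 0.31). The centromeric log2 ratio stood at -0.10 (-0.20 to -0.01) in ESCs and at -0.05 (-0.17 to 0.06) in MNs, and the telomeric one 0.03 (-0.04 to 0.09) and -0.09 (-0.15 to -0.02). For the ESC centromeric ratio the interval included 0 under 4 alternatives, with GC content in the expectation among them (-0.19 to 0.0019). Scaled to the library total, the MN centromeric ratio was -0.15 (-0.27 to -0.03), with an interval that excluded 0. In windows as rich in GC as HoxD the MN medians were -0.31 on both sides, so that HoxD stood at percentiles 99.4 and 98.5 there, and with the expectation by distance and GC content the MN ratios were 0.10 (-0.02 to 0.21) and 0.045 (-0.02 to 0.11). The sign of the flank change in MNs thus depended on how GC content was treated.

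Inside the cluster, the genes at the posterior end (Hoxd13 to Hoxd10) and those at the anterior end (Hoxd4, Hoxd3 and Hoxd1) met less often in MNs than in ESCs. Their contacts were 79 in WT ESCs, 94 in KO ESCs, 18 in WT MNs and 19 in KO MNs, at an O/E of 0.882 (0.698 to 1.10), 1.19 (0.964 to 1.46), 0.307 (0.182 to 0.485) and 0.329 (0.198 to 0.514). Both MN values were below both ESC values with no overlap of intervals. The log2 ratio of MN over ESC was -1.52 (-2.35 to -0.77) in WT and -1.86 (-2.65 to -1.14) in KO. With expectation by distance and GC content the 4 values were 1.01, 1.34, 0.269 and 0.389, and with genes placed over their whole body 0.980, 1.36, 0.408 and 0.325.

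Contacts within either end were also compared between cell states. Among the posterior genes they were 238 in WT ESCs and 158 in WT MNs, an MN over ESC log2 ratio of 0.11 (-0.19 to 0.41), and 309 in KO ESCs and 161 in KO MNs, a ratio of -0.44 (-0.73 to -0.16). Among the anterior genes they were 57 and 41 in WT and 46 and 39 in KO, with ratios of 0.09 (-0.53 to 0.69) and 0.16 (-0.50 to 0.80). The interval thus excluded 0 among the posterior genes in KO, and included it in the other 3, but the intervals of the posterior genes in WT and KO overlapped and the difference between genotypes was not tested. Single pairs between the ends varied. Hoxd13 with Hoxd4 had 3 and 7 contacts in WT and KO ESCs and is not listed in MNs, and Hoxd13 with Hoxd3 had 4 and 9 and is not listed in MNs. Some other pairs were near expectation in a single MN library. Hoxd10 with Hoxd1 had 4 contacts in WT (4.06 expected) and 1 in KO MNs (4.02 expected). Hoxd12 with Hoxd1 had 1 in WT (3.41 expected) and 3 in KO MNs (3.35 expected).

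Contacts across each edge between neighbouring bins locate the gap only broadly. In MNs they were lowest across the edge of Hoxd10 and Hoxd9, with an O/E of 0.481 (0.404 to 0.570) in WT and 0.442 (0.367 to 0.526) in KO, against 0.913 and 1.16 in ESCs. The next lowest was the edge of Hoxd11 and Hoxd10 in WT MNs, with 0.490, and that of Hoxd9 and Hoxd8 in KO MNs, with 0.465. In both MN libraries the intervals overlapped from the edge of Hoxd13 and Hoxd12 to that after Hoxd8, so a single edge was not resolved. Across the edge of the bin with Hoxd4 and the bin after it they were 0.872 and 0.759, closer to expectation.

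**Figure D3:**
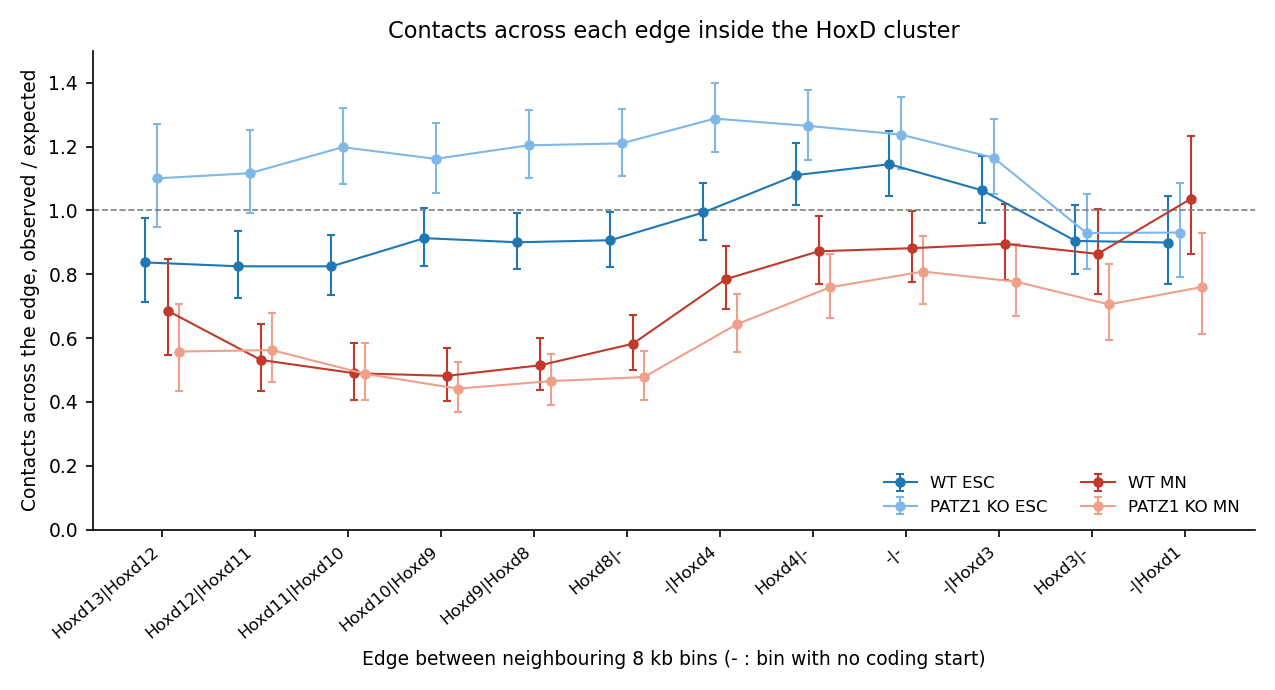
O/E of the contacts that cross each edge between neighbouring 8 kb bins of the cluster (vertical axis), from the Hoxd13 to the Hoxd1 end, in 4 libraries with 95% intervals. Both MN lines were lowest at the edge of Hoxd10 and Hoxd9, at 0.481 in WT and 0.442 in KO, and lay below the ESC lines there, and the KO ESC line lay above the WT ESC line at each edge.

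Insulation scores, the log2 of the mean contact in a 96 kb square that spans a bin over the mean on chromosome 2, fell in the same place. Hoxd11 had -0.90 in WT ESCs, -0.68 in KO ESCs, -2.43 in WT MNs and -2.20 in KO MNs, and Hoxd10 -0.73, -0.56, -2.33 and -2.51. The lowest MN values of the cluster, at Hoxd11 in WT and Hoxd10 in KO, stood at percentile 0.0751 of the bins of the chromosome. Among the cluster bins of ESCs the lowest were at Hoxd11 in WT, at -0.90 (percentile 2.90), and at Hoxd13 in KO, at -0.92 (percentile 3.30), while the bin of Evx2 at 74656001, outside the cluster, was lower in both, at -0.92 (percentile 2.64) and -0.93 (percentile 3.14). At Hoxd1 the scores were -0.16, -0.12, -0.08 and -0.10, so the anterior end had no such minimum in any of the libraries.

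In KO ESCs contacts between different bins of the cluster were above those in WT ESCs. They numbered 1598 in WT and 1710 in KO, at an O/E of 0.882 (0.839 to 0.926) and 1.06 (1.01 to 1.11), a log2 ratio of 0.27 (0.17 to 0.36). That ratio stood at percentile 99.16 of 22617 windows, of which 19.4% had an interval above 0. In MNs they numbered 978 in WT and 847 in KO, at an O/E of 0.852 (0.800 to 0.908) and 0.726 (0.678 to 0.777), a log2 ratio of -0.23 (-0.37 to -0.10) at percentile 25.9, where 38.0% of windows had an interval below 0. These percentiles are over windows of any GC content, and among windows as rich in GC as HoxD they were 97.0 for ESCs and 97.0 for MNs.

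By gene, 7 of 9 gene bins had an interval above 0 for their contacts with the rest of the cluster in KO over WT ESCs. Of all 13 bins of the cluster 7 did, against 6.49% of bins in windows of the autosomes. Hoxd10 had 238 such contacts in WT and 322 in KO ESCs, a log2 ratio of 0.60 (0.36 to 0.85). Hoxd12 had 206 and 248, a ratio of 0.43 (0.16 to 0.71), and Hoxd9 251 and 298, a ratio of 0.42 (0.17 to 0.66). Hoxd4, with 272 and 242 contacts and a ratio of 0.00 (-0.26 to 0.26), and Hoxd1, with 173 and 159, were the gene bins without such an interval. The pair of Hoxd12 and Hoxd10 had 11 contacts in WT and 39 in KO ESCs, where 27.6 and 24.3 were expected, and 8 and 17 in MNs. This pair was chosen with the values known, and some pairs ran the other way, such as Hoxd4 with Hoxd1 (17 in WT and 8 in KO ESCs). In MNs 1 of 9 gene bins, Hoxd1 with 127 contacts in WT and 94 in KO, had an interval below 0, at -0.45 (-0.85 to -0.05). Of all 13 bins 3 did, against 20.2% of bins on the autosomes. With GC content in the expectation, 5 gene bins in ESCs and 2 in MNs had an interval above 0 and 0 in MNs had one below 0, for which no share over all bins was computed. The bins share these pairs with each other and are not independent.

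The posterior genes shared in this. Among Hoxd13 to Hoxd10 the contacts were 238 in WT and 309 in KO ESCs, an O/E of 0.778 (0.682 to 0.884) and 1.13 (1.00 to 1.26), with a log2 ratio of 0.53 (0.28 to 0.78). Among Hoxd4, Hoxd3 and Hoxd1 they were 57 and 46, with a log2 ratio of -0.12 (-0.71 to 0.47), and between the ends the ratio was 0.44 (-0.01 to 0.89). With genes placed over their whole body the O/E between the ends was 0.980 (0.849 to 1.13) in WT and 1.36 (1.20 to 1.55) in KO ESCs. In MNs the same posterior genes had 158 contacts in WT and 161 in KO, a ratio of -0.02 (-0.35 to 0.30). The ESC intervals of the posterior and anterior genes overlapped, and the difference between them was not tested.

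**Figure D4:**
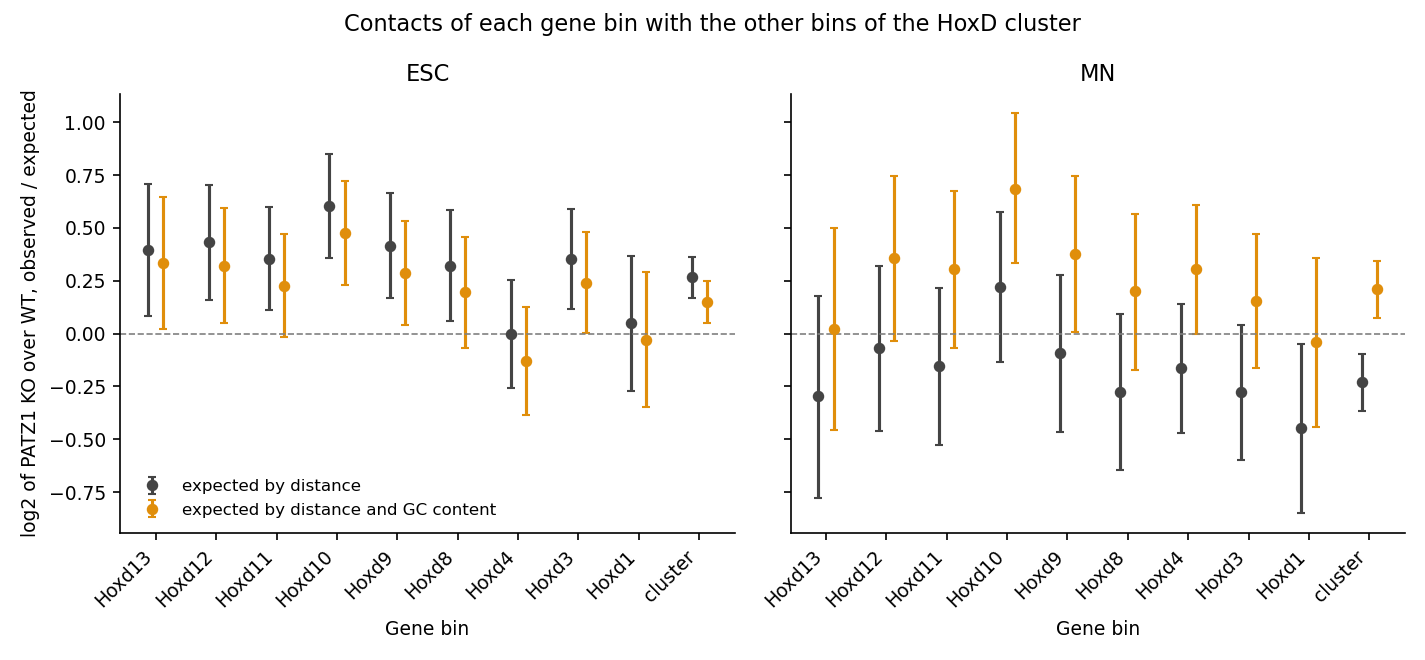
Log2 ratio of O/E in KO over WT (vertical axis) for the contacts of each gene bin with the other bins of the cluster and for all of the cluster, in ESCs and MNs with 95% intervals, with the expectation set by distance and by distance and GC content. In ESCs 7 gene bins had intervals above 0 by distance, and in MNs the ratio of the cluster went from -0.23 to 0.21.

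GC content moved with this measure too, and much more in MNs. From the 10% of windows poorest in GC to the 10% richest, the median log2 ratio of KO over WT went from 0.49 to -0.46 in MNs and from -0.15 to 0.10 in ESCs. HoxD lies among the 10% richest. With the expectation set by distance and GC content the ESC ratio was 0.15 (0.05 to 0.25) and the MN ratio 0.21 (0.07 to 0.34), so the direction in MNs reversed. Hoxd10 then stood at 0.69 (0.33 to 1.04) in MNs and 0.47 (0.23 to 0.72) in ESCs, and Hoxd1 at -0.04 (-0.44 to 0.36) and -0.03 (-0.35 to 0.29). GC content was read from the reference, and its part in the result was not tested.

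**Figure D5:**
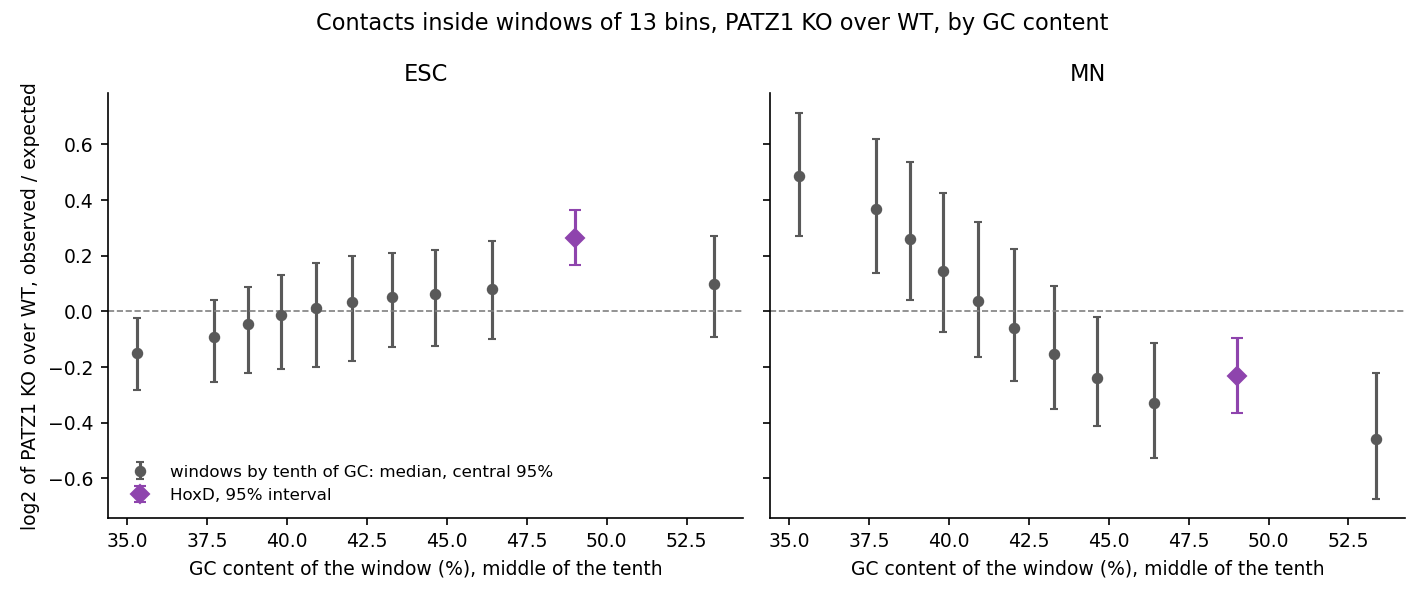
Log2 ratio of KO over WT for the contacts inside windows of 13 bins (vertical axis) against the GC content of the window in percent, as the median and central 95% of windows in 10 classes of GC, with HoxD as a diamond and its 95% interval. In MNs the medians fell from 0.49 to -0.46 and HoxD, at -0.23, lay near the upper end of the richest class, to which it belongs, and in ESCs they went from -0.15 to 0.10 with HoxD at 0.27.

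Across cell states the contacts inside the cluster depended on the same choice in WT. The log2 ratio of MN over ESC was -0.05 (-0.17 to 0.07) in WT and -0.55 (-0.67 to -0.43) in KO by distance, and -0.48 (-0.59 to -0.36) and -0.42 (-0.54 to -0.30) by distance and GC content. In the 10% of windows richest in GC, HoxD stood at percentiles 0.310 and 0.266. By distance, 2 of 9 gene bins had an interval below 0 in WT and 7 of 9 in KO. Of all 13 bins of the cluster 2 did in WT, against 22.4% of bins on the autosomes, and 9 in KO, against 10.6%. With GC content in the expectation 8 and 7 of the gene bins did, for which no share over all bins was computed. Hoxd1 and Hoxd4, at the anterior end, were the gene bins in KO with intervals that included 0 under both expectations.

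The other Hox clusters were set beside HoxD for contacts between their own bins, by distance. In ESCs the log2 ratio of KO over WT was 0.27 (0.17 to 0.36) in HoxD, 0.21 (0.13 to 0.28) in HoxA, 0.05 (-0.02 to 0.12) in HoxB and -0.23 (-0.32 to -0.15) in HoxC. By distance HoxD and HoxA overlapped in their intervals, while HoxD lay above HoxB and HoxC. With GC content in the expectation HoxD stood at 0.15 (0.05 to 0.25) in ESCs. The other clusters were not recomputed, so this order was not settled. In MNs the ratio was -0.23 (-0.37 to -0.10) in HoxD, -0.26 in HoxA, -0.14 in HoxB and -0.48 (-0.58 to -0.38) in HoxC. In this comparison the median of the 10% of windows richest in GC was -0.46. With GC content in the expectation HoxD stood at 0.21 (0.07 to 0.34), and the other clusters were not recomputed, so their direction in MNs was not resolved.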

How the data were processed

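Micro-C libraries (1 each for WT and PATZ1 KO in ESCs and MNs) were made with a Dovetail kit after cross-linking. The company mapped the reads, built the contact matrices and ran HiCcompare. Versions are not given in the sources used here, and the labels name the build mm10. The interaction frequencies deposited by the authors are raw counts of contacts per pair of 8 kb bins, listed only where both libraries of a cell state had at least 1. Beside them the authors deposited adjusted frequencies, a signal in which HiCcompare had evened out the WT and KO libraries by distance, which served here as an alternative. The remaining columns hold the authors' own comparison (ratios, scores and p-values) and were not used.

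Column 1 was read as WT and column 2 as KO, after the order of names in the comparison's title. Samples were grouped by their labels. Genes came from GENCODE M21 on GRCm38, and no listed bin ran past a chromosome end of that build. Expected contacts, O/E, shares and intervals were computed per library with Python 3.11.15, NumPy 2.4.6 and SciPy 1.17.1 and tested on simulated data, and figures drawn with Matplotlib 3.10.9. The background was 23278 windows of 13 bins along 19 autosomes, with an expectation of at least 100 contacts on each side compared. With 1 library per group no test was run and no p-value is given. Intervals cover counting error only, since reads without molecular identifiers are not independent molecules and neighbouring pairs share fragments. Summed contacts per library, 110991835 to 170946673, leave out pairs seen in a single library and are not full depth.

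The members, gene lists and comparisons were chosen with earlier results of these data known. Named were all 9 Hoxd genes, every protein-coding gene of the flanks as a partner, and the 3 bins per flank and cell state with the highest O/E. Alternatives were adjusted counts, flanks of 900 kb, leaving out flank bins within 40 kb or pairs over 500 kb, pairs listed in both cell states, pairs with a mean of at least 3, scaling to the library total, a fold of 1.5, gene bodies and a 248 kb square. Expectation by 5 classes of GC content, and thinning of the ESC libraries, were chosen after seeing the data. Thinning drew 64.9% of contacts in WT and 73.5% in KO, the ratios of the listed totals. It then left out pairs not seen in both libraries, so the share that stayed listed was lower.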

Additional observations from a re-analysis of the deposited data

Results flagged for a closer look

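In 3 measures of the whole cluster the difference of PATZ1 KO from WT ran in opposite directions in ESCs and MNs. With 1 library per group the difference between the cell states was not tested. The centromeric share of flank contacts was 1.84 points lower in KO in ESCs and 0.46 points higher in KO in MNs, a difference of 2.30 points. The MN value had an interval that included 0 and was negative, as in ESCs, under 3 alternatives: -0.39 without pairs over 500 kb, -0.33 on pairs listed in both cell states and -0.23 on pairs with a mean of at least 3. On the telomeric side KO over WT stood at 0.03 (log2) in ESCs and at -0.09 in MNs, a difference of -0.11. The ESC interval (-0.04 to 0.09) included 0, and scaled to the library total the values were -0.024 and -0.19, both below 0. Inside the cluster KO over WT stood at 0.27 (log2) in ESCs and at -0.23 in MNs, a difference of -0.50. With the expectation set by distance and GC content the ratio inside the cluster was 0.15 in ESCs and 0.21 in MNs and the telomeric ratio in MNs 0.045, so those opposite directions were not kept.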

How the results depend on the processing

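Of 104 values recomputed under an alternative, 83 stayed within the counting interval of the value given (or, for 4 counts that were already 0 and could only stay so under a fold of 1.5, at 0), 19 moved beyond it and 2 with an interval that excluded 0 changed sign. With expectation by distance and GC content, chosen after seeing the data, the MN ratio of KO over WT reversed inside the cluster (0.21) and on the telomeric side (0.045), that on the centromeric side was 0.10, that inside the cluster in ESCs 0.15, and that of MN over ESC inside the cluster in WT -0.48. Scaling to the library total put the telomeric MN ratio at -0.19. The MN minus ESC share was -8.91 points in WT and -6.88 in KO with flanks of 900 kb, -11.0 and -9.66 without pairs over 500 kb, and -2.70 and -1.03 on pairs listed in both cell states. The difference between Hoxd13 and Hoxd1 in WT was 64.1 points in ESCs and 74.3 in MNs without flank bins within 40 kb, 87.6 and 87.9 on pairs listed in both cell states, and 89.8 and 93.6 on pairs with a mean of at least 3. With a 248 kb square the lowest insulation scores were -1.47 in WT ESCs, -1.45 in KO ESCs and -2.83 in WT MNs. The causes were not tested. Gene bins whose contacts inside the cluster had an interval below 0 in MN over ESC in WT went from 2 to 8 with GC content in the expectation. Adjusted interaction frequencies, gene bodies and thinning of the ESC libraries moved none of the 13, 4 and 5 values they were run on beyond that interval. No paired analysis was possible because each group has 1 library. Depth limits single bins, since even the bins of Hoxd4, Hoxd3 and Hoxd1 together had 60 centromeric contacts in each MN library.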
